A study of Homo sapiens with 6 samples.

Results

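Potassium channel genes were examined in heart muscle cells differentiated from WTC11, an established human line of induced pluripotent stem cells. The genes were taken by name: every listed symbol made of KCN, 1 or more capital letters and then digits only, which gave 95 of the 38557 genes counted. The study compared 2 backbone media, RPMI plus B27, a serum-free supplement, and DMEM plus fatty acids, by RNA sequencing of 3 biological replicates in each. All 6 cultures carry the label WT and come from a single line. The labels give no age of the cells, no composition of the media and no time spent in them, and they do not say whether the replicates were separate differentiations, so p-values measure the spread between these samples. Names outside the pattern, such as antisense transcripts, do not count among the 95.

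Potassium channels let potassium leave the cell and so end the cardiac action potential and hold the resting membrane potential. Pore-forming subunits fall into voltage-gated (Kv), inward rectifier (Kir), two-pore domain and calcium-activated families, and small auxiliary subunits (KCNE, KCNIP, KCNAB and KCNMB genes) change how the pores open and reach the membrane. In heart muscle each current has its main genes: KCNH2 for the rapid delayed rectifier IKr, KCNQ1 with KCNE1 for the slow delayed rectifier IKs, KCNJ2 and its Kir2 relatives for the resting current IK1, KCNA5 for the atrial current IKur. Cardiomyocytes made from stem cells are known for little IK1.

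The libraries held 23232324 to 31035389 gene counts, and a count of 0 allowed up to 0.0888 to 0.129 CPM (gene counts scaled to the size of the library, here after TMM, a trimmed mean of ratios between libraries). The potassium channel genes together took 0.0846% to 0.103% of the gene counts of a library. Cardiomyocyte markers summed to 24012 to 36674 CPM over 10 genes, 0 of which were called between media without the replicate number as a block. With it ACTN2 (-1.05 ± 0.21, edgeR adjusted p 0.0494) and MYH7 (-1.32 ± 0.23, adjusted p 0.0359) were called lower in DMEM plus fatty acids, both without overlap. MYH6 went the other way without overlap, with 3501 to 5648 CPM in RPMI plus B27 against 6754 to 10611 CPM. It was not called with the block (0.87 ± 0.22, adjusted p 0.0797). Without the block, 3 of the 10 fold changes were above 0 and 7 below. Fibroblast and stromal markers were lower in DMEM plus fatty acids, with 5 of 8 called and sums of 4304 to 8257 CPM in RPMI plus B27 against 727 to 1934 CPM. Smooth muscle and pericyte markers summed to 1971 to 2331 CPM against 567 to 1515 CPM, with 1 of 7 called. Of the endothelial markers KDR ran from 27.5 to 462.8 CPM and was called higher with the block (1.49 ± 0.21, adjusted p 0.0245), and the other 5 stayed at or below 1.13 CPM. Of the 3 tested, KDR was the 1 above 0, and 2 were below 0 and not called. Without the block these were TEK (-2.13 ± 0.51, adjusted p 0.0960, without overlap) and TIE1 (-0.97 ± 0.53, adjusted p 0.389). Of the genes listed for skeletal muscle, CKM ran from 411 to 919 CPM without overlap and was called higher with the block (0.69 ± 0.13, adjusted p 0.0438). ACTN3 went the other way, with 0.373 to 8.13 CPM against 0.401 to 1.18 CPM (-2.08 ± 1.00 without the block, adjusted p 0.334). MYOD1 had no count in any library. Epicardial markers summed to 1689 to 2235 CPM against 797 to 1022 CPM, with 1 called lower without the block and 3 with it. Nearly all of this sum came from the keratin genes KRT8 (538 to 1478 CPM) and KRT18 (256 to 751 CPM). TBX18 reached at most 7.72 CPM, TCF21 1.09 CPM, WT1 0.866 CPM and UPK3B 0.373 CPM. Hepatic and foregut markers summed to 15.5 to 108 CPM against 7.57 to 30.7 CPM. Of these, AFP was called lower with the block (-4.09 ± 0.61, adjusted p 0.0256), with 0 to 62.8 CPM against 0.0860 to 4.86 CPM. Neuronal markers summed to 23.0 to 35.4 CPM against 11.9 to 26.0 CPM, and pluripotent markers to at most 2.33 CPM. Over all genes tested, 1.36% were called without the block and 4.77% with it. In bulk RNA, fewer cells of a type and less RNA per cell cannot be told apart.

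Of the 95 genes, 37 were expressed, meaning at least 1 CPM in all 3 libraries of at least 1 medium, 50 had counts below that level and 8 had no count in any library. In RPMI plus B27 35 genes met the level, in DMEM plus fatty acids 31, and 29 had at least 1 CPM in all 6 libraries. Expression was uneven: 14 genes averaged at least 10 CPM and 6 at least 50 CPM, and the 10 most abundant genes held 79.1% ± 5.75 of the potassium channel counts in the first medium and 82.1% ± 1.63 in the second (mean ± SD, n = 3). The genes with no count were KCNA10, KCNC2, KCNG4, KCNK4, KCNK9, KCNK17, KCNK18 and KCNU1, none of them a main carrier of a ventricular current.

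KCNH2 (hERG, chr7:150944961-150978315, minus strand) was the most abundant member, with 277, 229 and 254 CPM in replicates 1 to 3 of RPMI plus B27 and 307, 253 and 224 CPM in DMEM plus fatty acids. It made up 26.9% ± 1.70 of all potassium channel counts in the first medium and 29.2% ± 3.50 in the second. Divided by the length of the principal GENCODE transcript, so that genes can be set side by side, KCNH2 stood at 59.1 ± 5.51 and 61.0 ± 9.83 CPM per kb. High levels were also found for KCNN2 (a small-conductance calcium-activated channel) at 23.4 ± 4.60 and 32.3 ± 5.88, and KCNIP2 (KChIP2, the calcium-binding partner of Kv4 channels) at 28.0 ± 18.4 and 23.5 ± 13.8 CPM per kb. KCNN2 and KCNIP2 overlapped within their spread, so no order between them can be given. KCNJ5 (Kir3.4, GIRK4) followed at 17.1 ± 5.71 and 14.5 ± 5.36 CPM per kb, within the spread of KCNIP2. KCNQ1 averaged 10.3 CPM per kb over all libraries, and KCNQ5 did not differ from it beyond the spread. KCNJ2 was far down this order at 0.209 ± 0.0641 and 0.512 ± 0.0894 CPM per kb. With the union of all annotated exons as the length, KCNJ5 and KCNIP2 ranked above KCNN2, which was followed by KCNQ5 and KCNJ4.

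**Figure D1:**
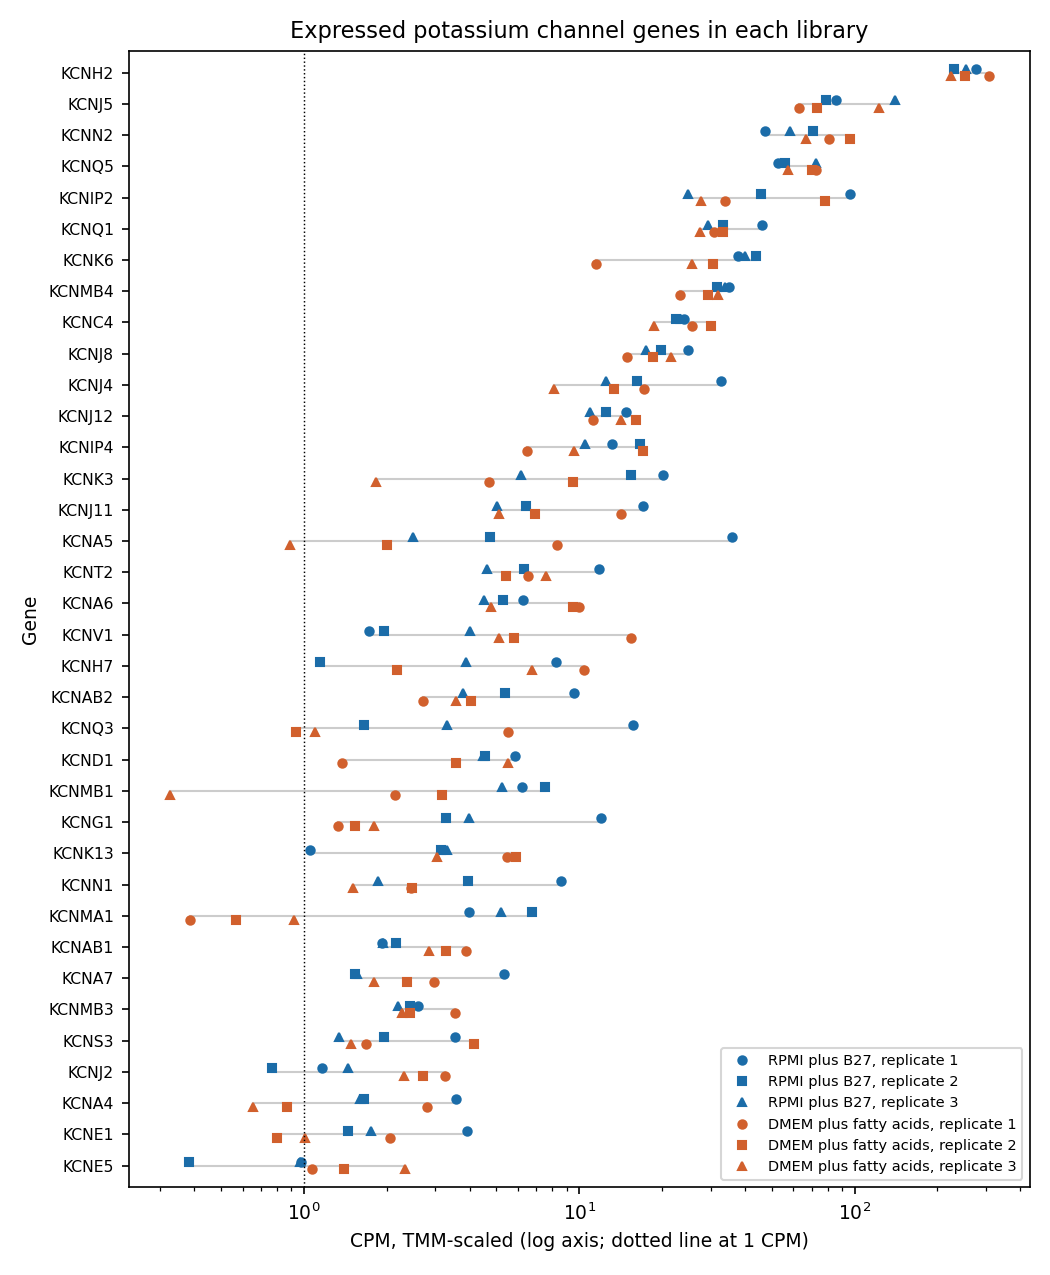
Each row is 1 of 36 expressed potassium channel genes, ordered by mean level, and each point is 1 library on a log axis of CPM (blue for RPMI plus B27, orange for DMEM plus fatty acids, marker shape for replicate). KCNH2 lies highest at 224 to 307 CPM, and the points of the 2 media are apart for KCNMA1 but intermingled for most genes.

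Upstream sequence is shown for a pair of cardiac pore genes that differed in opposite directions: KCNJ2, higher in every DMEM plus fatty acids library, and KCNA5, lower in every replicate of that medium than in the same replicate of RPMI plus B27. Neither gene was called without the replicate block, and with the block only KCNA5 was. Each run is the 250 bases before the RefSeq start in GRCh38.p14, plus strand, with GC boxes in capitals; KCNJ2 is at chr17:70169282-70169531 and KCNA5 at chr12:5043629-5043878. The KCNJ2 window overlaps no GENCODE exon of the gene, but it lies inside the annotated gene, in the first intron of a transcript that starts farther upstream.
KCNJ2: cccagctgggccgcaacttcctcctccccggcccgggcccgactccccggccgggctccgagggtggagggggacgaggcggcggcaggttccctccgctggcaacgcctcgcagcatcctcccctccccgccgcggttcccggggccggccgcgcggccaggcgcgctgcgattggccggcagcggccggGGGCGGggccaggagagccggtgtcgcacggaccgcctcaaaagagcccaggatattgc
KCNA5: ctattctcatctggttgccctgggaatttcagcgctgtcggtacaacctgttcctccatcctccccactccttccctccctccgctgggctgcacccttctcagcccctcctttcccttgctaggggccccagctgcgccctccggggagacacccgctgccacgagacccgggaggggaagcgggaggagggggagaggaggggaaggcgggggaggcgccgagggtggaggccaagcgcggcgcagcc

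Both windows were rich in G and C (77.6% for KCNJ2, 68.8% for KCNA5). A GC box (GGGCGG on either strand) occurred once in the KCNJ2 window and not in that of KCNA5, and 42.6% of all 35116 upstream windows in the table held one. A TATA box (TATAAA on either strand) was in neither, against 10.7% of all windows, and a CArG box, the binding motif of serum response factor, was in neither, against 1.16%. Of the 109 windows of potassium channel genes, 53 held a GC box, 9 a TATA box and 2 a CArG box. These windows belong to 71 genes, of which 46 had a GC box in at least 1 window, 9 a TATA box and 2 a CArG box. The counts by gene cannot be set against the shares of windows, since a gene can have several windows.

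Between media, 56 of the 95 genes had enough counts to be tested, the 37 expressed ones and 19 others. Only KCNMA1 was called, at an adjusted p under 0.05 over all 16107 genes tested (edgeR quasi-likelihood test, Benjamini-Hochberg), against 1.36% of all genes. When replicate number was added as a block, 5 members were called, against 4.77% of all genes: KCNMA1, KCNA5, KCNE4 and KCNQ3 lower and KCNMB2 higher in DMEM plus fatty acids. At an unadjusted p under 0.05 without the block there were 13 of 56 (23.2%), 6 higher and 7 lower, against 17.7% of all genes. With the block there were 23 of 56 (41.1%), against 24% of all genes. The 3 libraries of a medium did not overlap those of the other for 15 of 56 (26.8%), 8 higher and 7 lower, against 25.6% of all genes. The median log2 fold change of the tested members was -0.20, where that of all genes was 0.01. Without RPMI plus B27 replicate 1 the median of the members was 0.11, so its direction rested on that library. Among the 10 most abundant members the fold changes ran from -0.83 to 0.47 on the log2 scale and 0 were called (their unadjusted p was under 0.05 for KCNK6 and KCNN2).

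**Figure D2:**
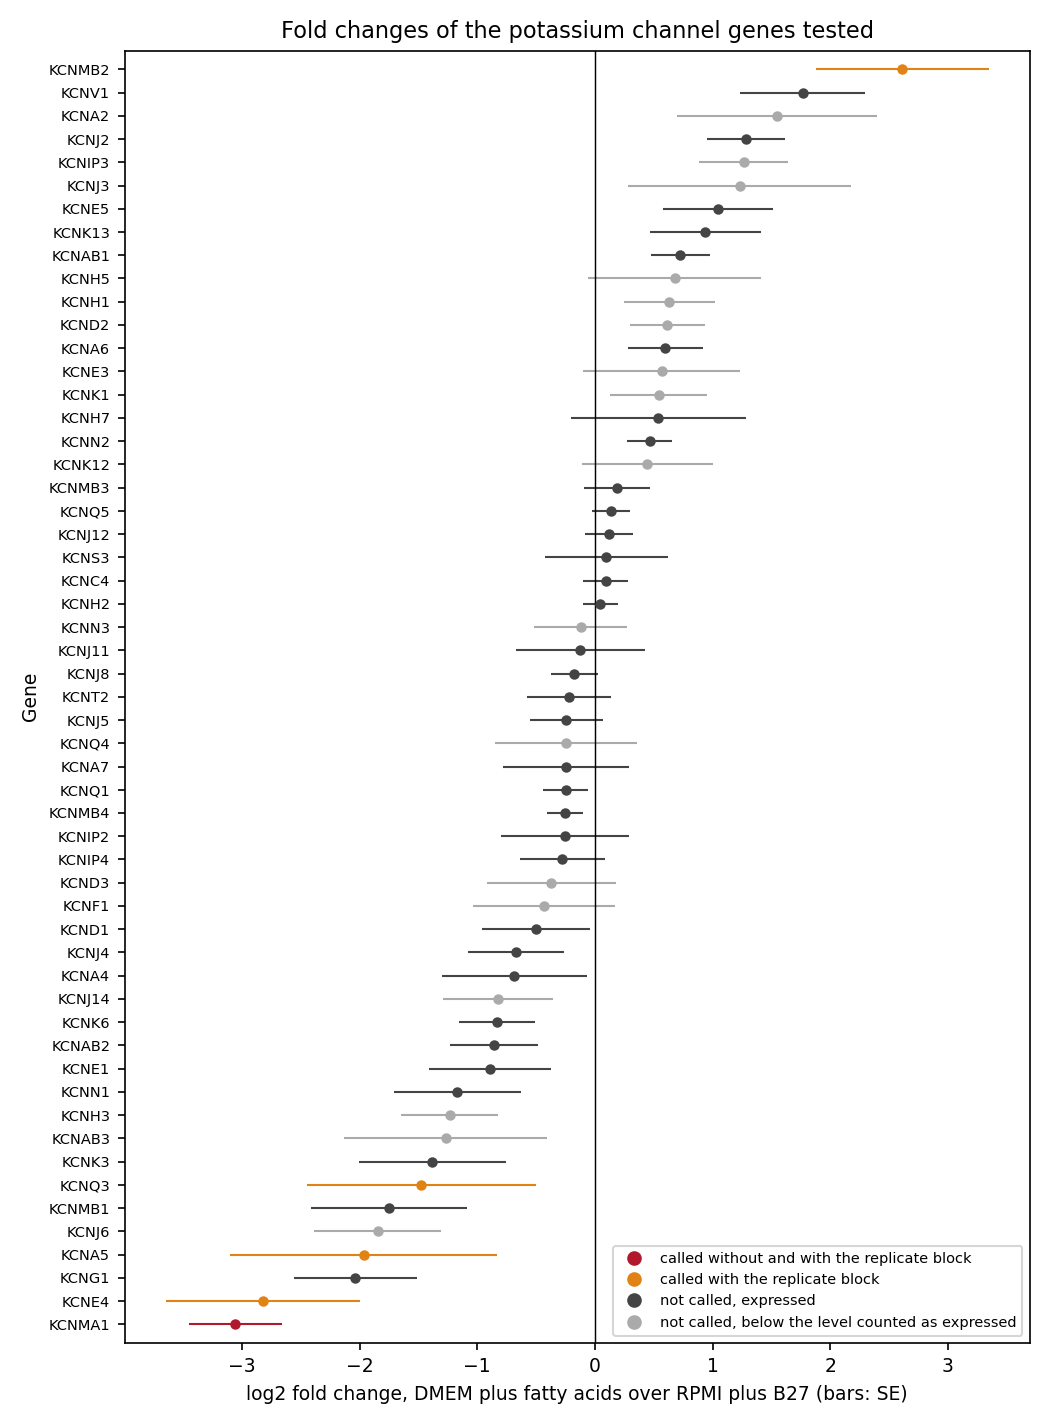
Points are the fitted log2 fold changes of 55 tested potassium channel genes, with values above 0 higher in DMEM plus fatty acids, SE bars, and colour marks the calls. KCNMA1 at -3.06 is the only gene called without the block; KCNA5, KCNE4, KCNQ3 and KCNMB2 are called with it.

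The BK channel, opened by both calcium and depolarisation, is built from the KCNMA1 pore and a beta subunit from the KCNMB genes. KCNMA1 (chr10:76869601-77638369, minus strand) had 3.99, 6.72 and 5.22 CPM in RPMI plus B27, against 0.387, 0.568 and 0.918 CPM in DMEM plus fatty acids. Every DMEM plus fatty acids library was below every RPMI plus B27 library. KCNMA1 fell by 3.06 ± 0.39 (SE) on the log2 scale with an adjusted p of 0.0292, and of 0.0132 with the replicate block. Leaving out 1 library kept the call only when the third RPMI plus B27 library was left out (adjusted p 0.0490), and the other 5 fits gave 0.0543 to 0.106 with log2 fold changes of -3.44 to -2.83 over all 6. In those 6 fits the whole data set gave 3 to 131 calls.

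KCNMB1, the beta subunit typical of smooth muscle, went the same way with 6.21, 7.52 and 5.25 CPM against 2.15, 3.17 and 0.326 CPM and no overlap. Its log2 fold change of -1.75 ± 0.66 was not called (adjusted p 0.232, and 0.0853 with the block). KCNMB2, a beta subunit that inactivates the channel, went the other way, with 0.565, 0.170 and 0.149 CPM against 3.44, 1.34 and 0.800 CPM. Its level was below 1 CPM in 4 of 6 libraries, and the DMEM plus fatty acids value was highest in replicate 1. The log2 fold change of KCNMB2 was 2.61 ± 0.73, with an adjusted p of 0.136 without and 0.0221 with the block (2.64 ± 0.35), and 32.1% of its exon bases overlap another annotated gene. Without RPMI plus B27 replicate 1 the unblocked KCNMB2 value was 3.49, and without DMEM plus fatty acids replicate 1 it was 1.83. KCNMB4, the beta subunit best known from brain, was the most abundant BK row in all libraries, with 35.0, 31.6 and 33.8 CPM against 23.1, 29.3 and 31.9 CPM (-0.25 ± 0.15, adjusted p 0.436). KCNMB3 stayed between 2.20 and 3.53 CPM, and 47.5% of its exon bases overlap another gene, so its counts are uncertain. Summed over the 5 genes, the libraries held 46.6 to 48.4 CPM in RPMI plus B27, against 32.7 to 36.9 CPM in DMEM plus fatty acids. Of these counts, KCNMA1 took 11.1% ± 2.81 in the first medium and 1.75% ± 0.70 in the second, and KCNMB4 took 70.0% ± 4.17 and 79.5% ± 8.59 (mean ± SD, n = 3).

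KCNMA1 and KCNMB1 are both known from smooth muscle. Beside them, the smooth muscle and pericyte list had 7 of 7 members with a fold change below 0 (median -1.28), with LMOD1 called, and 2 called with the block. The fibroblast and stromal list had 8 of 8 below 0 (median -2.84), 7 of them called with the block, and its member DCN had no count in DMEM plus fatty acids replicate 1. The part of these cell types in the KCNMA1 and KCNMB1 values was not tested.

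**Figure D3:**
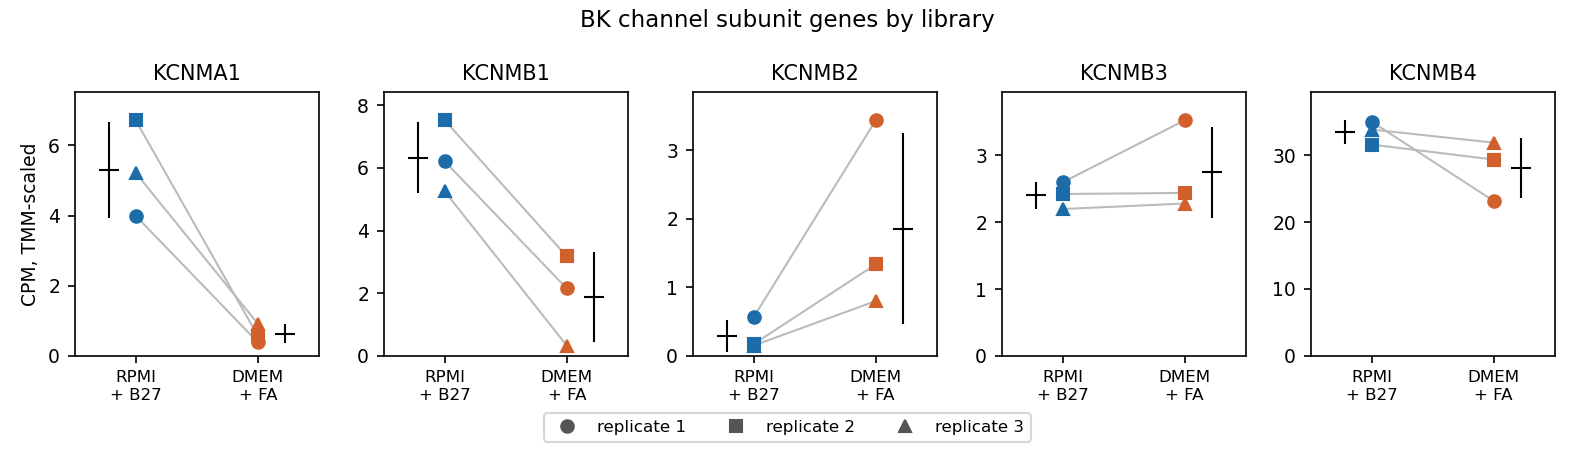
CPM of the 5 BK subunit genes in each library (linear axes from 0), with grey lines joining the replicates of 1 number and black bars for mean ± SD of 3 libraries; FA stands for fatty acids. KCNMA1 and KCNMB1 are lower, and KCNMB2 higher, in every DMEM plus fatty acids library, while KCNMB3 and KCNMB4 overlap between media.

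The inward rectifiers of IK1 hold the resting potential near that of potassium. KCNJ2 (Kir2.1, chr17:70168673-70180048), the main ventricular gene, had 1.17, 0.765 and 1.45 CPM in RPMI plus B27, against 3.27, 2.71 and 2.31 CPM in DMEM plus fatty acids. All 3 libraries of the second medium were higher. The fold change of 1.28 ± 0.33 on the log2 scale did not pass (adjusted p 0.114, 0.0840 with the block, and 0.0186 to 0.282 over all 13 alternatives). DESeq2's Wald test alone called it.

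Of the relatives of KCNJ2, KCNJ4 and KCNJ12 were more abundant than KCNJ2. KCNJ4 (Kir2.3) had 32.7, 16.2 and 12.5 CPM in RPMI plus B27, against 17.2, 13.3 and 8.09 CPM in DMEM plus fatty acids (-0.67 ± 0.41, adjusted p 0.438), lower in each replicate but with overlap between media. KCNJ12 (Kir2.2) had 14.8, 12.5 and 10.9 against 11.2, 16.1 and 14.2 CPM (0.12 ± 0.20, adjusted p 0.801). Its near-identical copy KCNJ18 had 1 count in all, and reads that fit both copies are set aside by the counter, so KCNJ12 can be undercounted. KCNJ14 (Kir2.4) ran from 0.368 to 1.84 CPM. KCNJ2 took 3.48% ± 1.85 of the Kir2 counts in the first medium and 9.14% ± 0.89 in the second, while KCNJ4 took 55.4% ± 8.45 and 41.9% ± 10.8 (mean ± SD, n = 3).

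**Figure D4:**
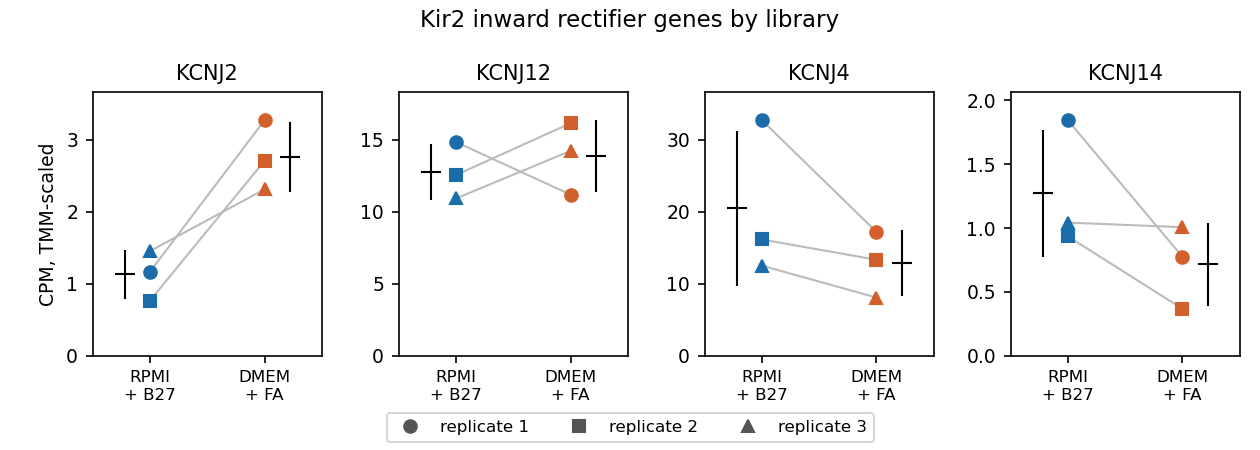
CPM of 4 Kir2 genes by library (linear axes from 0), grey lines joining replicates of 1 number, black bars for mean ± SD of 3 libraries; FA stands for fatty acids. KCNJ2 lies at 0.765 to 1.45 CPM in RPMI plus B27, against 2.31 to 3.27 CPM in DMEM plus fatty acids, and KCNJ12, KCNJ4 and KCNJ14 overlap between media.

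Among the delayed rectifiers, the KCNH2 values given above overlapped between media (log2 fold change 0.05 ± 0.15, adjusted p 0.899). Its partner KCNE2 (MiRP1) reached at most 0.170 CPM and was not tested. KCNQ1, the IKs pore, had 46.1, 33.4 and 29.3 CPM against 30.8, 33.2 and 27.5 CPM (-0.25 ± 0.19, adjusted p 0.540). KCNE1 (minK), which slows KCNQ1, had 3.92, 1.45 and 1.75 CPM against 2.06, 0.802 and 1.01 CPM. It was lower in DMEM plus fatty acids in each replicate, the media overlapped, and the difference did not pass (-0.89 ± 0.52, adjusted p 0.416). The counts of KCNE1 are uncertain, since a separately listed near-identical gene, KCNE1B, had similar levels.

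KCNA5 (Kv1.5, chr12:5043989-5046788), the pore of the atrial current IKur, varied most between replicates of the 37 expressed members, with coefficients of variation of 130% and 107%. Its values were 35.8, 4.76 and 2.50 CPM in RPMI plus B27, against 8.30, 2.00 and 0.888 CPM in DMEM plus fatty acids. Replicate 1 was the highest in both media, and each DMEM plus fatty acids library was below the RPMI plus B27 library of its number. Without the block the log2 fold change of -1.97 ± 1.14 had an adjusted p of 0.412, and with the block KCNA5 fell by 1.65 ± 0.24 with an adjusted p of 0.0245. Without RPMI plus B27 replicate 1 the unblocked value was 0.024, and without DMEM plus fatty acids replicate 1 it was -3.31. Without replicate 1 of both media it was -1.33 ± 0.52 (adjusted p 0.334). The Kv beta subunits KCNAB1 and KCNAB2, which bind Kv1 pores, did not pass: KCNAB1 had 1.92 to 2.17 CPM against 2.84 to 3.87 CPM (0.73 ± 0.25) without overlap, and KCNAB2 3.80 to 9.60 against 2.71 to 4.04 CPM (-0.86 ± 0.37, adjusted p 0.290).

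KCNQ3 (Kv7.3, a subunit of the neuronal M current) was also highest in replicate 1 of both media, with 15.7, 1.66 and 3.32 CPM in RPMI plus B27, against 5.51, 0.936 and 1.10 CPM in DMEM plus fatty acids. With the block it fell by 1.34 ± 0.26 (adjusted p 0.0440), and without the block the difference was -1.48 ± 0.97 (adjusted p 0.474). Without RPMI plus B27 replicate 1 the unblocked difference was -0.012, and without DMEM plus fatty acids replicate 1 it was -2.76. KCNE4, an auxiliary subunit that inhibits several Kv1 and Kv7 pores, had 1.88, 0.553 and 0.410 CPM against 0.215, 0.167 and 0.0296 CPM. It was below 1 CPM in 5 of 6 libraries. With the block KCNE4 fell by 2.68 ± 0.51 (adjusted p 0.0426), and without it the difference was -2.82 ± 0.82 (adjusted p 0.149). Without RPMI plus B27 replicate 1 the unblocked difference of KCNE4 was -1.85 ± 0.68 (adjusted p 0.285).

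Replicate 1 was the highest library in both media for 11 of the 37 expressed members (29.7%), against 19.7% of all genes tested. These 11 were KCNA4, KCNA5, KCNA6, KCNA7, KCNE1, KCNH2, KCNH7, KCNJ4, KCNJ11, KCNMB3 and KCNQ3. The same number was highest in both media for 16 of 37 (43.2%), against 47.5% of all genes tested. These sets are unlike, since the genes tested include some below the level counted as expressed. In KCNA5 replicate 1 exceeded the next library 7.53-fold in RPMI plus B27, against 4.14-fold in DMEM plus fatty acids, and in KCNQ3 4.73-fold and 5.03-fold. In KCNH2 these ratios were 1.09 and 1.22. The pattern was noticed in these values and is given as a description.

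**Figure D5:**
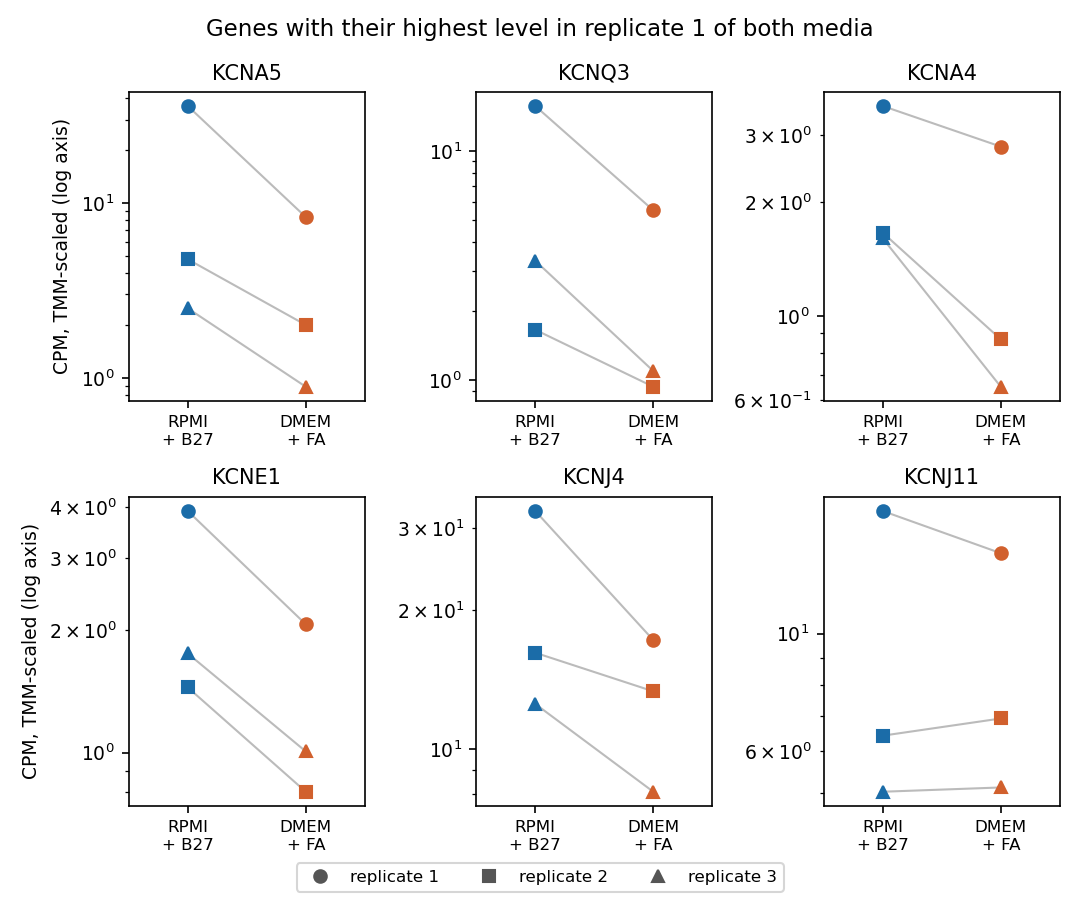
CPM on log axes for 6 genes whose highest library was replicate 1 in both media, with grey lines joining replicates of 1 number; FA stands for fatty acids. The lines of KCNA5, KCNQ3, KCNA4, KCNE1 and KCNJ4 all slope down to DMEM plus fatty acids, and KCNJ11 runs from 5.03 to 17.1 CPM with replicate 1 highest.

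The transient outward current Ito uses Kv4 pores with KCNIP2. Of the Kv4 pores, KCND1 (Kv4.1) had 4.47 to 5.87 CPM against 1.38 to 5.51 CPM and was expressed (-0.50 ± 0.46, adjusted p 0.613). KCND3 (Kv4.3) ran from 0.385 to 1.96 CPM and KCND2 (Kv4.2) from 0.602 to 1.13 CPM, and neither met the level counted as expressed. KCND2 did not overlap between media, with 0.602 to 0.680 CPM against 0.731 to 1.13 CPM (0.62 ± 0.32, adjusted p 0.366). KCNIP2 had 96.2, 45.9 and 24.9 CPM in RPMI plus B27, against 34.0, 78.3 and 27.8 CPM in DMEM plus fatty acids. The highest replicate was not the same in both media, and the fold change of -0.25 ± 0.55 did not pass (adjusted p 0.847). Its direction turned without RPMI plus B27 replicate 1 (0.40 ± 0.50). KCNA4 (Kv1.4) had 1.60 to 3.58 CPM against 0.652 to 2.80 CPM (-0.69 ± 0.61, adjusted p 0.604), and KCNE3 stayed at or below 1.002 CPM. The Kv4 partners outside the pattern were also low: DPP10 had 0.559 to 1.23 CPM and DPP6 at most 0.0296 CPM.

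For the acetylcholine-activated current IKACh, KCNJ5 was abundant and its usual partner KCNJ3 (Kir3.1, GIRK1) was not. KCNJ5 had 86.0, 78.5 and 140.6 CPM in RPMI plus B27, against 62.6, 73.0 and 122.2 CPM in DMEM plus fatty acids, with replicate 3 the highest in both (-0.24 ± 0.31, adjusted p 0.727). KCNJ3 had 0.149 to 0.866 CPM in RPMI plus B27, against 3.23 CPM in DMEM plus fatty acids replicate 1 and 0.434 and 0.415 CPM in its replicates 2 and 3. Its log2 fold change of 1.23 ± 0.95 did not pass (adjusted p 0.542).

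The ATP-sensitive channel pairs a Kir6 pore with a sulfonylurea receptor. KCNJ8 (Kir6.1), known from pericytes and smooth muscle, had 24.8, 19.9 and 17.5 CPM against 15.0, 18.5 and 21.6 CPM (-0.17 ± 0.20, adjusted p 0.693). KCNJ11 (Kir6.2), the ventricular pore, had 17.1, 6.42 and 5.03 CPM against 14.2, 6.92 and 5.12 CPM (-0.12 ± 0.55, adjusted p 0.929). Of the receptors, ABCC9 (SUR2) had 12.0 to 16.3 CPM against 15.8 to 23.1 CPM (0.41 ± 0.20, adjusted p 0.340), and ABCC8 (SUR1) reached at most 0.430 CPM.

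Two-pore channels carry background potassium current. KCNK6 (TWIK-2) had 37.6, 43.8 and 39.9 CPM in RPMI plus B27, against 11.5, 30.7 and 25.8 CPM in DMEM plus fatty acids. The media did not overlap, but DMEM plus fatty acids replicate 1 was far below its other libraries, and the difference of -0.83 ± 0.33 did not pass (adjusted p 0.247, 0.0905 with the block). KCNK3 (TASK-1), an acid-sensitive channel known from atrial cells, had 20.2, 15.5 and 6.15 CPM against 4.69, 9.52 and 1.84 CPM. It was lower in all 3 replicates, with overlap between media (-1.38 ± 0.63, adjusted p 0.308, 0.0502 with the block). KCNK13 (THIK-1) had 1.05 to 3.32 against 3.05 to 5.91 CPM (0.94 ± 0.47, adjusted p 0.350). Summed over the 9 two-pore genes of the current list, the values were 50.5 to 62.8 CPM against 22.5 to 47.1 CPM, without overlap. KCNK1 (TWIK-1) stayed below 1 CPM, and KCNK2 (TREK-1) and KCNK5 (TASK-2) reached at most 0.149 CPM.

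Of the small-conductance channels, opened by calcium through calmodulin, KCNN2 (SK2) had 47.4, 70.5 and 58.5 CPM against 80.6, 96.3 and 66.8 CPM. It was higher in DMEM plus fatty acids in each replicate, with 1 library overlapping, and was not called (0.47 ± 0.19, adjusted p 0.263). KCNN1 (SK1) had 8.62, 3.95 and 1.86 CPM against 2.45, 2.47 and 1.51 CPM (-1.17 ± 0.54, adjusted p 0.317, and -0.44 without RPMI plus B27 replicate 1). KCNN3 (SK3) stayed below 1 CPM and KCNN4 reached at most 0.0592 CPM.

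Several members outside the cardiac current groups were among the largest differences without being called. KCNG1, a silent Kv subunit that modifies other Kv pores, had 12.0, 3.27 and 3.99 CPM against 1.33, 1.54 and 1.81 CPM without overlap (-2.04 ± 0.52, adjusted p 0.114, 0.00322 to 0.287 over its alternatives), and without RPMI plus B27 replicate 1 the difference was -1.21 ± 0.27 (adjusted p 0.135). KCNV1, another silent subunit, had 1.73, 1.96 and 4.02 CPM against 15.4, 5.78 and 5.12 CPM (1.76 ± 0.53, adjusted p 0.158). Only DESeq2's Wald test called KCNV1 (adjusted p 0.0162 of a range of 0.0162 to 0.378 over its alternatives), and without DMEM plus fatty acids replicate 1 the difference was 1.08 ± 0.42. Below the level counted as expressed, KCNJ6 (GIRK2, -1.85 ± 0.54, adjusted p 0.149), KCNH3 (-1.23 ± 0.41, adjusted p 0.189) and KCNIP3 (1.26 ± 0.38, adjusted p 0.159) did not overlap between media. The same held for KCNA2 (1.55 ± 0.85, adjusted p 0.392), with a count of 0 in RPMI plus B27 replicate 1, and for KCND2, KCNE4 and KCNMB2, given above. The remaining expressed members ranged from low to high in level, with KCNQ5 and KCNC4 among the 10 most abundant. KCNIP4 (KChIP4) had 10.5 to 16.6 CPM against 6.45 to 17.1 CPM and KCNT2, a sodium-activated channel, 4.62 to 11.8 CPM against 5.41 to 7.55 CPM. KCNS3, a silent subunit, had 1.34 to 3.54 CPM against 1.48 to 4.14 CPM. KCNA7 (Kv1.7) ran from 1.53 to 5.35 CPM and KCNH7 (an ERG relative of KCNH2) from 1.15 to 10.4 CPM over all 6 libraries. KCNA6 (Kv1.6) ran from 4.51 to 10.02 CPM, all of its annotated exon bases overlap another gene, and its counts are uncertain. KCNIP4, KCNT2 and KCNS3 overlapped between media, with log2 fold changes of -0.28 to 0.10. KCNE5, an auxiliary subunit on the X chromosome, did not overlap, with 0.383 to 0.979 CPM against 1.08 to 2.34 CPM (1.04 ± 0.47, adjusted p 0.304). KCNC4 (Kv3.4) ran from 18.7 to 30.2 CPM and KCNQ5 (Kv7.5) from 52.9 to 72.4 CPM. Their log2 fold changes were 0.09 ± 0.19 and 0.14 ± 0.16, each with overlap.

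Genes outside the pattern whose products bind, transport or regulate these channels had 0 called among 18 tested of 24 listed, without and with the block. Of all genes tested, 1.36% were called without the block and 4.77% with it. Those tested comprised ABCC9, DPP10, 10 scaffold and trafficking genes and 6 transcription factors. At an unadjusted p under 0.05 without the block there were CAV3 (caveolin 3) and ANK2 (ankyrin B), named here after their values were seen. Of all genes tested, 17.7% were under that p. CAV3 had 0.745 to 1.88 CPM against 0.0592 to 0.401 CPM (-2.35 ± 0.65, adjusted p 0.132), and ANK2 had 140.7 to 213.5 CPM against 221.7 to 251.9 CPM (0.44 ± 0.17, adjusted p 0.237).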

How the data were processed

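The authors deposited raw counts per gene symbol, 1 file for each of the 6 libraries, from libraries that the labels' protocols describe as stranded mRNA. The submitters' processing notes list STAR, HTSeq and hg38. Versions, annotation and strand setting are not given in the sources used here, so overlapping and antisense genes are uncertain. The summary rows (no feature 5.44% to 7.57%, ambiguous 3.90% to 4.15%, not unique 3.05% to 4.10% of each library) were left out.

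The 95 rows were found by the name pattern. The members, lists and naming rule were chosen with earlier results of these data known. Named genes were expressed members of the cardiac current lists, members called without or with the replicate block, and the 10 with the smallest p and the 10 with the highest mean; others named were chosen after their values were seen. edgeR 4.0.16 in R 4.3.3 was fitted to all genes (filterByExpr, minimum count 10 and total 15, leaving 16107; TMM; quasi-likelihood test; Benjamini-Hochberg, threshold 0.05), and SEs are those implied by the F statistic. DESeq2 1.42.0, other scalings and filters, the replicate block and left-out libraries were alternatives, and the edgeR step was tested on simulated data. Libraries with the same number deviated together (r of 0.33, 0.49 and 0.39, against -0.25 to -0.16 for other numbers). Deviations were taken from the mean of each medium, which pushes the values of other numbers below 0 when those of the same number are above it. The main fit did not use this pairing, and replicate number entered only as the block of an alternative fit. What a number marks is not said in the labels. No 2 replicates agreed within sampling noise (smallest chi-square per degree of freedom 32.2). Coordinates, exon overlaps and transcript lengths are those of GENCODE 29 (GRCh38), which matched all 95 symbols. Upstream sequences are RefSeq's. Members left out of the text and plots are not reported here, but counts over all members include them.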

Additional observations from a re-analysis of the deposited data

How the results depend on the processing

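The number of expressed members was 37, and 30 to 47 over its 10 alternatives. All genes called numbered 219, and 769 with the replicate block, 1212 by the DESeq2 Wald test, 539 with no filter on low counts, 119 with at least 10 counts in every library, 3 to 131 with 1 library left out and 37 without replicate 1 of both media, an alternative chosen after seeing the data. Members called numbered 1, and 5 with the replicate block, 6 by the DESeq2 Wald test, 2 with no filter and 0 with at least 10 counts in every library, where KCNMA1 was not tested. They numbered 0 to 1 with libraries left out. Scaling by total counts moved the median of all genes to 0.12 on the log2 scale, and the share of lower calls from 172 of 219 to 128 of 202; it changed no direction or call of the 33 named members. The replicate block changed no call of the 33 named members but those of KCNA5, KCNE4, KCNQ3 and KCNMB2. Over the alternative fits of the 33 named members, 390 kept direction and call, 10 gained a call, 6 lost that of KCNMA1, and 17 turned direction, all with libraries left out and none called. With libraries left out, those that turned ranged from -3.31 to 0.024 (KCNA5), -0.073 to 0.26 (KCNC4), -0.088 to 0.15 (KCNH2), -0.85 to 0.58 (KCNIP2), -0.66 to 0.61 (KCNJ11), -0.0039 to 0.37 (KCNJ12), -0.58 to 0.066 (KCNJ5), -0.30 to 0.10 (KCNJ8), -0.031 to 0.31 (KCNMB3) and -0.014 to 0.29 (KCNQ5). Depth limits the members below 1 CPM, where a library holds few counts.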

Other observations

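Of the 26 other rows whose symbol begins with KCN, 9 had no count in any library and 4 were tested, with 0 called without or with the replicate block. The shares of all genes tested were 1.36% and 4.77%. KCNQ1OT1, the antisense transcript of KCNQ1 known for imprinting, had 4.63, 7.06 and 11.6 CPM in RPMI plus B27, against 9.29, 5.28 and 8.47 CPM in the other medium, so the media overlapped (log2 fold change -0.02 ± 0.37, adjusted p 0.987). KCNE1B had 3.84, 1.62 and 1.38 CPM against 1.98, 0.635 and 0.770 CPM (-1.03 ± 0.58, adjusted p 0.400), highest in replicate 1 of both media like KCNE1. KCNJ2-AS1, beside KCNJ2, ran from 0.410 to 1.03 CPM (0.59 ± 0.40, adjusted p 0.483).

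The expressed potassium channel members had a median coefficient of variation between replicates of 33.3% for RPMI plus B27 and 35.5% for the other medium, against 15.8% and 12.7% over the 13719 genes expressed by the same rule. These sets differ in mean level, and the part of level in this difference was not tested.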
